A study of Gallus gallus with 12 samples.

Results

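The genes CYBB, NCF4 and NOS2, which belong to the antimicrobial oxidant systems of macrophages, were followed in HTC cells, an established chicken macrophage line, during contact with 3 species of Eimeria. They were found through the symbols that the platform annotation gives to the spots of the array. These 3 genes, of 2253 symbols on the array, were represented by 15 spots, grouped here into 5 clones of 3 spots each. A clone stands for the spots of one annotated cDNA. CYBB and NOS2 had 2 clones each and NCF4 had 1.

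The phagocyte oxidase is a membrane enzyme that passes electrons from NADPH to oxygen and so makes superoxide on the side of the phagosome. CYBB encodes its membrane subunit that carries the haem and flavin groups, and NCF4 encodes a cytosolic subunit that binds a phosphoinositide of the phagosome membrane and helps to assemble the enzyme there. NOS2 encodes the inducible nitric oxide synthase, which makes nitric oxide from arginine. In macrophages it is known as a gene switched on by microbial products and interferon gamma, and nitric oxide and superoxide react with each other to form peroxynitrite.

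Polyadenylated RNA came from unstimulated HTC cells and from HTC cells stimulated for 4, 18 or 48 h with parasites of the species E. tenella, E. maxima or E. acervulina, protozoa that cause coccidiosis in chickens. Which parasite stage was used, and at what dose, the sources used here do not give. Each of the 12 two-colour arrays compared 2 of the 12 RNA samples, carrying the dyes Alexa555 and Alexa647, and the 4 arrays of a species closed a loop through its 4 RNA samples. Each species and time had a single RNA sample, so a time was replicated only across the 3 species, and the spread between them may hold differences between the parasites as well as error. All groups were the same cell line, and no label describes unstimulated cells harvested at 4, 18 or 48 h, so contact with the parasite and hours in culture cannot be told apart. The unstimulated RNA has the same name in the 3 loops and was treated as 3 samples. If it was 1 sample, p-values of contrasts against it are too small.

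The deposited value of a spot is a log ratio of the 2 dyes, read here as log2 of Alexa555 over Alexa647, so that a difference of 1 is 2-fold. That direction is likely only. It rests on the sample titles, which name the Alexa555 sample first, and was adopted with values of other genes on these arrays already known. In the opposite reading every log2 ratio and change below turns its sign and higher becomes lower, while no size, p-value or correlation changes and counts of higher and lower trade places. Between 12199 and 13938 of 14718 spots had a value on an array, and array medians lay between -0.04 and 0.12. A log ratio carries no absolute level, so the macrophage markers of the line could be checked for change and not for presence. A lower level in this material can come from fewer cells that express a gene or from less RNA per cell, which cannot be told apart.

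Of 180 possible values of the 15 spots, 162 were present, and each clone had at least 1 spot on every array. The median SD between the spots of a clone on an array was 0.23 for CYBB clone 1 (spots 1116, 6236 and 11356) and 0.096 for CYBB clone 2 (spots 1682, 6802 and 11922). It was 0.13 for NCF4 (spots 5020, 10140 and 15260), 0.091 for NOS2 clone 1 (spots 1085, 6205 and 11325) and 0.10 for NOS2 clone 2 (spots 2050, 7170 and 12290). The median of this SD over the 2988 named clones measured on all 12 arrays was 0.12, so CYBB clone 1 was the noisiest of the 5. On single arrays the SD reached 0.50 for CYBB clone 1 and 0.63 for NOS2 clone 2. Spots are repeats on one slide and were averaged, not counted as replicates.

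**Figure D1:**
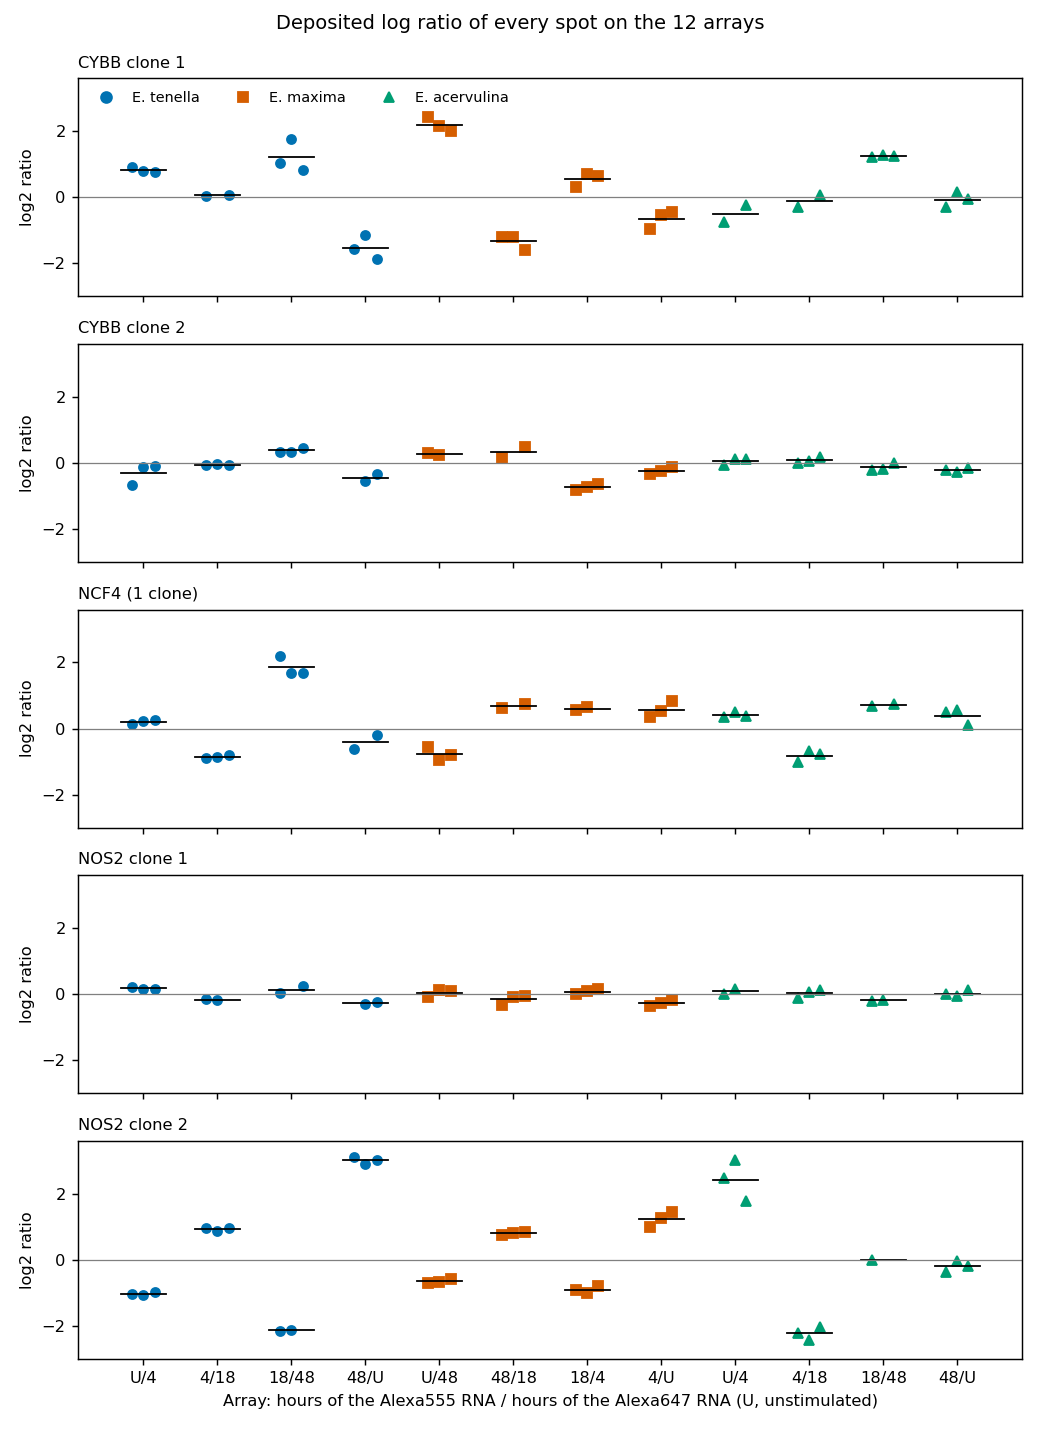
Deposited log2 ratio of every spot (points) on the 12 arrays, 1 panel per clone, with the mean per array as a line; the x axis names the hours of the Alexa555 and Alexa647 RNA, with U for unstimulated, and colours mark the species. NOS2 clone 2 spans array means from -2.22 to 3.01, whereas those of NOS2 clone 1 stay between -0.27 and 0.18.

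CYBB clone 1 was lower after 48 h of stimulation than at any earlier time in all 3 species, by little against unstimulated cells in E. acervulina. The species differed in where the unstimulated RNA lay relative to the stimulated samples of its loop. Which of these samples differed between loops cannot be told, as no array links the loops. In E. tenella the array means of its spots were 0.82 for unstimulated over 4 h, 0.06 for 4 h over 18 h, 1.21 for 18 h over 48 h and -1.52 for 48 h over unstimulated. In E. maxima, whose loop ran the other way, they were 2.20 for unstimulated over 48 h, -1.33 for 48 h over 18 h, 0.56 for 18 h over 4 h and -0.64 for 4 h over unstimulated. In E. acervulina they were -0.49 for unstimulated over 4 h, -0.11 for 4 h over 18 h, 1.24 for 18 h over 48 h and -0.07 for 48 h over unstimulated. The 18 h sample thus exceeded the 48 h sample on the array that compared them in every loop, by 1.21, 1.33 and 1.24. On their direct arrays 48 h and unstimulated RNA were nearly equal in E. acervulina alone. The other 3 arrays of that loop gave -0.63 for 48 h against unstimulated RNA. These single ratios still hold the dye shift given below.

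Least squares over each loop gave the change of CYBB clone 1 against unstimulated cells. It was -0.68 at 4 h, -0.60 at 18 h and -1.67 at 48 h with E. tenella. With E. maxima it was -0.84 at 4 h, -0.48 at 18 h and -2.01 at 48 h, the last a 4.01-fold lower level. With E. acervulina it was 0.64 at 4 h, 0.89 at 18 h and -0.21 at 48 h. The standard error from array error was 0.095 at the first and last of these times and 0.11 at 18 h, a time that no array set directly against unstimulated RNA. E. tenella and E. maxima were lower than unstimulated at every time, and E. acervulina was higher at 4 and 18 h. The species thus overlapped only in being below 0 at 48 h. For E. acervulina the 95% interval from array error at 48 h ran from -0.46 to 0.046 and so included 0.

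The change common to the 3 species at 48 h was -1.29 ± 0.95 for CYBB clone 1 (SD, n = 3 species), which passed at the limit of the threshold of 0.05 (limma over 4450 clones, adjusted p = 0.049). The SD printed with a time contrast is that of the 3 species values in that contrast. Its p rests instead on a spread pooled over all times, here a standard error of 0.30, and does not measure that SD. Of all clones 4.04% passed in that contrast, and 46.9% had one sign in all 3 species. Leaving out E. tenella or E. maxima gave -1.11 and -0.94 (adjusted p = 0.17 and 0.38), and leaving out E. acervulina gave -1.84 (adjusted p = 0.032). In the fit by gene symbol, 1, 0 and 2 of 3700 features passed in these cases, against 133 with all 3 species. After centring of the arrays on their medians the common change of CYBB clone 1 was -1.25 (adjusted p = 0.053). Contrasts between 48 h and the earlier stimulated samples varied less between species. All 4 arrays of a loop entered each of them, as they did for the change against unstimulated cells. From 18 to 48 h the change was -1.07, -1.53 and -1.10 in E. tenella, E. maxima and E. acervulina, a mean of -1.23 ± 0.26 that was below 0 in 3 of 3 species but did not pass over all clones (unadjusted p = 0.0025, adjusted p = 0.22, with 0 of 4450 clones passing). From 4 to 48 h it was -0.99, -1.17 and -0.85, a mean of -1.0 ± 0.16 (adjusted p = 0.075, with 8.02% of clones passing).

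CYBB clone 2 changed less than clone 1 at 48 h and more at 18 h with E. maxima. Its array means ran from -0.74 to 0.38, and the outermost value belonged to 18 h over 4 h in E. maxima. Its change at 48 h was -0.34 with E. tenella, -0.37 with E. maxima and -0.16 with E. acervulina, each smaller in size than that of clone 1, though by little in E. acervulina. The common change at 48 h was -0.29 ± 0.11 (limma, adjusted p = 0.31). At 18 h clone 2 was at -0.79 with E. maxima, 0.14 with E. tenella and -0.24 with E. acervulina, and at 4 h it lay between -0.15 and 0.20.

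NCF4 was higher at 18 h in all 3 species and went separate ways at 48 h. In E. tenella its array means were 0.20 for unstimulated over 4 h, -0.86 for 4 h over 18 h, 1.85 for 18 h over 48 h and -0.40 for 48 h over unstimulated. In E. maxima they were -0.77 for unstimulated over 48 h, 0.69 for 48 h over 18 h, 0.60 for 18 h over 4 h and 0.57 for 4 h over unstimulated. In E. acervulina they were 0.41 for unstimulated over 4 h, -0.82 for 4 h over 18 h, 0.70 for 18 h over 48 h and 0.39 for 48 h over unstimulated. On the array that compared them, 18 h exceeded 4 h in every loop, and 18 h exceeded 48 h in E. tenella and E. acervulina but not in E. maxima.

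The change of NCF4 against unstimulated cells at 18 h was 1.06 with E. tenella, 0.63 with E. maxima and 0.75 with E. acervulina, a mean of 0.81 ± 0.22 that corresponds to 1.75-fold. Its 95% interval ran from 0.11 to 1.51, and it did not pass over all features (limma, unadjusted p = 0.027, adjusted p = 0.14). Of the 3700 features, 49.8% had one sign in all 3 species at 18 h. From 4 to 18 h the change was 1.06, 0.32 and 0.99 in the same order of species, a mean of 0.79 ± 0.40 (adjusted p = 0.33, with 0.027% of features passing). At 48 h NCF4 was at -0.60 with E. tenella, 1.04 with E. maxima and 0.22 with E. acervulina, so the species lay on both sides of 0 and the mean was 0.22 ± 0.82. At 4 h the values were 0.00, 0.30 and -0.24. A dye effect passed for NCF4 and CYBB clone 1. The ratio of NCF4 was shifted towards Alexa555 by 0.20, 0.27 and 0.17 in the loops (mean 0.21, adjusted p = 0.043), and that of CYBB clone 1 by 0.14, 0.20 and 0.14 (mean 0.16, adjusted p = 0.048). A constant shift cancels in the loop levels. For 13.3% of clones this term passed.

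NOS2 clone 2 had the widest swings of the 5 clones and opposite directions in different species. In E. tenella its array means were -1.04 for unstimulated over 4 h, 0.94 for 4 h over 18 h, -2.14 for 18 h over 48 h and 3.01 for 48 h over unstimulated, where the 3 spots read 3.10, 2.90 and 3.03. In E. maxima they were -0.66 for unstimulated over 48 h, 0.81 for 48 h over 18 h, -0.91 for 18 h over 4 h and 1.23 for 4 h over unstimulated. In E. acervulina they were 2.42 for unstimulated over 4 h, -2.22 for 4 h over 18 h, 0.00 for 18 h over 48 h and -0.20 for 48 h over unstimulated. On the array of unstimulated over 4 h its 3 spots read 2.48, 3.02 and 1.77, the widest spread of any member. The 4 h sample was therefore above both neighbours of its loop in E. tenella and E. maxima and below both in E. acervulina.

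Against unstimulated cells NOS2 clone 2 was at 1.23 at 4 h, 0.49 at 18 h and 2.82 at 48 h with E. tenella, the last a 7.05-fold higher level. With E. maxima it was at 1.11 at 4 h, 0.09 at 18 h and 0.78 at 48 h. With E. acervulina it was at -2.42 at 4 h, a 5.35-fold lower level, and then at -0.19 and -0.20. The array standard error was 0.14 at 4 and 48 h and 0.17 at 18 h. The 2 routes around a loop can be set against each other: for E. acervulina at 4 h the direct array and the other 3 arrays both gave -2.42, and for E. tenella at 48 h they gave 3.01 and 2.24. For CYBB clone 1 at 48 h with E. maxima they gave -2.20 and -1.42. For NCF4 the routes differed in sign at 4 h in every species (-0.20 and 0.59, 0.57 and -0.51, and -0.41 and 0.28) and at 48 h with E. acervulina (0.39 and -0.29). A constant dye shift enters the difference of the routes 4 times, and any other array error enters it too. On the E. acervulina array of 18 h with 48 h the clone rested on 1 spot.

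NOS2 clone 1 stayed near 0 throughout. Its 9 changes against unstimulated cells lay between -0.23 and 0.03, and its array means between -0.27 and 0.18. The SD of its 12 levels was 0.085, at the percentile 3.61 of the 2988 named clones, whereas that of NOS2 clone 2 was 0.92, at the percentile 99.4. For CYBB clone 1 the SD was 0.63 (percentile 97.9), for CYBB clone 2 it was 0.23 (percentile 55.3) and for NCF4 it was 0.48 (percentile 94.7). The median SD over named clones was 0.21.

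**Figure D2:**
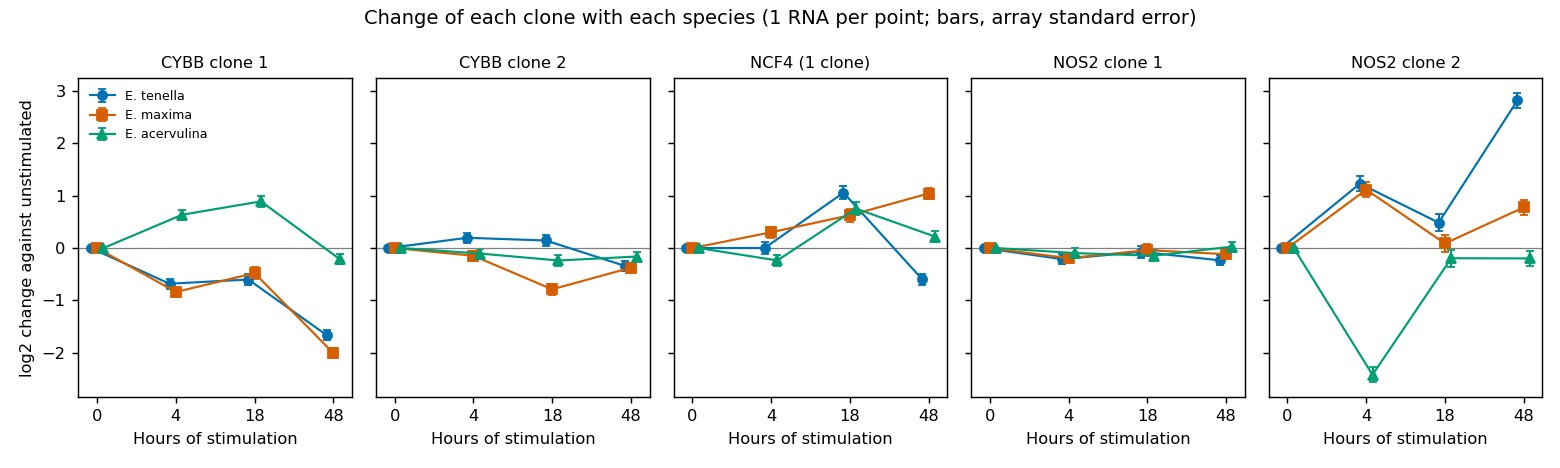
Least squares log2 change against unstimulated cells (y axis) by hours of stimulation (x axis) for each clone, with 1 line per species; each point is 1 RNA sample and bars are the standard error from array error. E. tenella and E. maxima run together for CYBB clone 1, E. acervulina runs above them, and for NOS2 clone 2 at 4 h it lies below them at -2.42.

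A fit to the 12 arrays sets each RNA sample against array error, with 2 residual degrees of freedom. It asks whether 2 RNA samples differ and does not compare conditions. By that test CYBB clone 1 was below unstimulated at 48 h with E. tenella and E. maxima (adjusted p = 0.011 and 0.014, with 12.2% and 27.3% of clones passing). It was also below at 4 h with both of them (adjusted p = 0.048 and 0.018, with 3.35% and 20.8% of clones passing), and above at 4 h with E. acervulina (adjusted p = 0.022, with 24.1% of clones passing). NOS2 clone 2 was above unstimulated with E. tenella at 4 and 48 h (adjusted p = 0.041 and 0.0093) and with E. maxima at 4 and 48 h (adjusted p = 0.020 and 0.027), and below it with E. acervulina at 4 h (adjusted p = 0.011). NCF4 was above unstimulated at 48 h with E. maxima (adjusted p = 0.014) and below it at 48 h with E. tenella (adjusted p = 0.040). None of the 5 clones passed at 18 h in any species, where 0.517%, 0% and 1.12% of clones passed with E. tenella, E. maxima and E. acervulina. No change of CYBB clone 2 or of NOS2 clone 1 passed. With the further limit of at least a 2-fold change, the calls left were CYBB clone 1 with E. tenella and E. maxima at 48 h, NCF4 with E. maxima at 48 h, and NOS2 clone 2 with E. tenella at 4 and 48 h, E. maxima at 4 h and E. acervulina at 4 h. At 4 h 1.57%, 4.22% and 4.38% of clones met both limits with E. tenella, E. maxima and E. acervulina in turn, and at 48 h 2.97% and 4.7% did with the first pair of species.

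The clones of one symbol did not tell one story. Over the 1014 pairs of clones that share a symbol, from 555 symbols, the median Pearson r between the 12 levels of a pair was 0.63. The points of such an r share their arrays and loops. For the CYBB clones it was 0.27, and 29.4% of pairs had that r or a lower one. For the NOS2 clones it was -0.46, and 3.35% of pairs had that r or a lower one. The SD of the levels of NOS2 clone 1 was 0.085, beside an array error SD of 0.11 for that clone. The r of the NOS2 clones therefore does not show that they moved in opposite directions. The SD of levels differed by a factor of 1.35 for the median pair, 2.82 for CYBB and 10.8 for NOS2, the highest ratio of all 1014 pairs. The root mean square difference between the levels of a pair was 0.19 for the median pair, 0.59 for CYBB and 0.92 for NOS2. NOS2 ranked 6 and CYBB ranked 28 among the pairs by that difference.

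**Figure D3:**
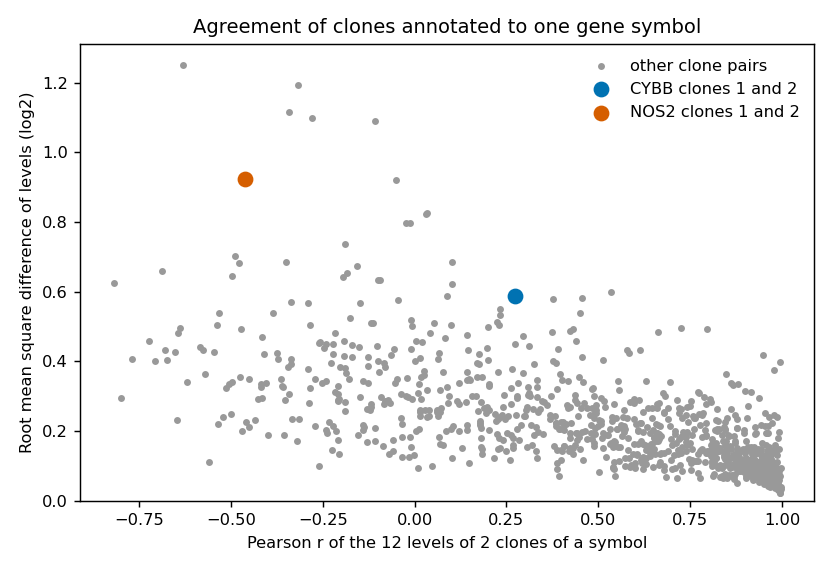
Pearson r of the 12 levels of 2 clones of a symbol (x axis) against their root mean square difference in log2 (y axis), 1 point per pair for 1014 pairs. Most pairs lie low and to the right, while NOS2 lies at r -0.46 with a difference of 0.92 and CYBB at r 0.27 with a difference of 0.59.

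The difference between clones was also tested for the time contrasts in a limma fit over these 1014 pairs. At 48 h the change of CYBB clone 1 minus that of clone 2 was -1.0 (unadjusted p = 0.024, adjusted p = 0.10, with 11% of pairs passing). For NOS2 clone 1 minus clone 2 at 48 h the value was -1.24 (adjusted p = 0.29). Against array error, the 2 NOS2 clones differed at 4 h with E. tenella, E. maxima and E. acervulina by -1.44, -1.31 and 2.32 (adjusted p = 0.048, 0.029 and 0.018, with 1.97%, 7.69% and 9.76% of pairs passing). At 48 h they differed by -3.05 with E. tenella and -0.89 with E. maxima (adjusted p = 0.0097 and 0.045, with 5.03% and 12% of pairs passing). The CYBB clones differed at 48 h by -1.33 with E. tenella and -1.63 with E. maxima (adjusted p = 0.023 and 0.029). At 4 h they differed by -0.69 with E. maxima and, the other way, by 0.74 with E. acervulina (adjusted p = 0.044 and 0.045), and by -0.88 with E. tenella, which did not pass (adjusted p = 0.055). The annotation gives these clones one symbol, and which transcript each spot measured was not tested.

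Averaging all spots of CYBB or NOS2 therefore mixed clones whose levels varied to different extents. For the gene averages, 1 of the 3 genes, CYBB, passed at 48 h, where 3.59% of the 3700 features passed and 1.86% passed as lower. The mean was -0.89 ± 0.61 (limma with a standard error of 0.19 pooled over all times, adjusted p = 0.039). The call was lost without any 1 of the species (adjusted p from 0.064 to 0.33), with arrays centred (0.053), with 3 of 4 arrays per loop admitted (0.067) and with the direct array alone (0.28). Without 1 species 0 to 2 of the 3700 features passed at 48 h, against 133 with all 3, so that loss was not particular to CYBB. Its average stood at -1.08 with E. tenella, -1.38 with E. maxima and -0.20 with E. acervulina, and its common change lies between those of its clones. None of the 3 passed at 4 h, where 10.4% of features passed, or at 18 h, where 1.62% passed (limma, with 0 of 3 at an unadjusted p under 0.05 at 4 h and NCF4 alone at 18 h). In the same order of species the NOS2 average was 0.62, 0.46 and -1.44 at 4 h. At 18 h it was 0.32, 0.02 and -0.30, and at 48 h it was 1.51, 0.33 and -0.13. Its common changes were -0.12 ± 1.15, 0.01 ± 0.31 and 0.57 ± 0.85, and the adjusted p at 48 h was 0.37.

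In order of the common level, CYBB was highest in unstimulated cells, followed by 4 h, 18 h and 48 h. Neighbours in that order differed by -0.18, -0.03 and -0.68. No neighbouring step passed (limma, adjusted p = 0.57, 0.97 and 0.26, with 10.4%, 0.027% and 0% of features passing). The last step was below 0 in 3 of 3 species (limma, unadjusted p = 0.0058). NCF4 was highest at 18 h, followed by 48 h, 4 h and unstimulated cells. Its level at 18 h was above that at 48 h by 0.59 ± 1.04 in size (48 h minus 18 h was -0.59, limma adjusted p = 0.44, with 0% of features passing). NOS2 was highest at 48 h, and its levels at 18 h, in unstimulated cells and at 4 h lay within 0.13 of each other, less than the SD of any of those contrasts.

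**Figure D4:**
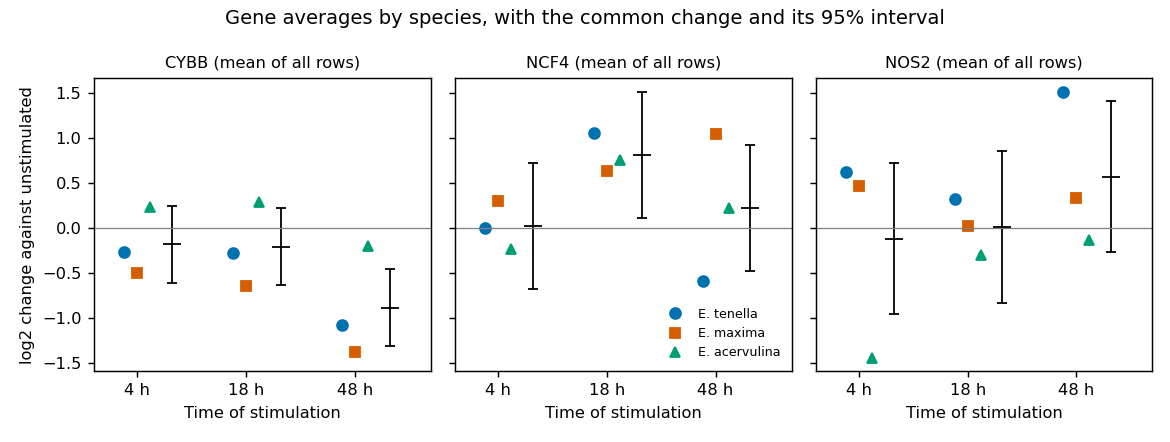
Log2 change against unstimulated cells (y axis) of the average over all spots of a symbol at 4, 18 and 48 h (x axis), with 1 point per species and the common change with its 95% interval in black. The interval stays clear of 0 for CYBB at 48 h and NCF4 at 18 h, before adjustment over all features, and the NOS2 points at 4 h split into 0.62 and 0.46 against -1.44.

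The 3 species were compared in the mean stimulated minus unstimulated change with a limma F test, which passed for 0 of 3700 features and 0 of 4450 clones (113 features and 130 clones had an unadjusted p under 0.05). CYBB clone 1 had the second smallest p of the 4450 clones (rank 2, unadjusted p = 0.00072, adjusted p = 0.999). Its mean stimulated change was -0.98 with E. tenella, -1.11 with E. maxima and 0.44 with E. acervulina. For NOS2 clone 2 the values were 1.51, 0.66 and -0.94 (unadjusted p = 0.21), lowest with E. acervulina, where CYBB clone 1 was highest. For NCF4 they were 0.15, 0.66 and 0.25 (unadjusted p = 0.74).

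Single RNA samples of different species at one time were also set against array error, each relative to its own unstimulated RNA, for the 3 pairs of species at 3 times. NOS2 clone 2 was higher with E. tenella than with E. acervulina by 3.65 at 4 h (adjusted p = 0.042, with 0.36% of clones passing) and by 3.02 at 48 h (adjusted p = 0.024, with 1.28% of clones passing). It was higher with E. tenella than with E. maxima by 2.04 at 48 h (adjusted p = 0.039, with 3.42% of clones passing), while at 4 h these 2 species differed by 0.11, with a 95% interval from -0.43 to 0.66. CYBB clone 1 with E. tenella minus E. acervulina was -1.46 at 48 h (adjusted p = 0.045), and E. maxima minus E. acervulina was -1.80, which did not pass (adjusted p = 0.13). NCF4 with E. tenella minus E. maxima was -1.64 at 48 h (adjusted p = 0.039). For CYBB clone 1, E. tenella minus E. acervulina was -1.32 at 4 h and -1.49 at 18 h, near its size at 48 h, and did not pass. For NOS2 clone 2, E. maxima minus E. acervulina was 3.53 at 4 h, near the value for E. tenella, and did not pass. These comparisons have 1 RNA sample on each side and the p covers array error only.

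Across the 12 levels, Pearson r was -0.64 between CYBB clone 1 and NOS2 clone 2 and -0.60 between the gene averages of CYBB and NOS2. It was -0.07 between CYBB and NCF4 and -0.12 between NCF4 and NOS2. These values describe 12 levels of 3 loops that share arrays in pairs and sum to 0 in each loop.

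The genes whose 12 levels ran most like each member were found among the other 2237 named features. For CYBB they were NUP210L (r = 0.91), PCNA, the sliding clamp of DNA replication (0.90), DSTN, an actin depolymerising factor (0.89), GSTA3, a glutathione transferase (0.89), and SPCS2, a signal peptidase subunit (0.89). PCNA and GSTA3 were at -1.13 and -1.0 at 48 h, and NUP210L, DSTN and SPCS2 were at -0.53, -0.42 and -0.30. For NCF4 they were PPP1CC, a catalytic subunit of a protein phosphatase (0.97), the amino acid transporters SLC7A6 (0.93) and SLC7A5 (0.92), the adaptor gene SLA (0.92) and ADSS2, an enzyme of AMP synthesis (0.91). For NOS2 they were the selenoprotein gene SELENOT (0.90), the transcription factor gene KLF5 (0.89), LEPROTL1 (0.82), GAK (0.82) and EIF3I, a subunit of a translation initiation factor (0.81). For the more variable clones alone the list began with HMGB1, LAPTM5 and ARHGDIA for CYBB clone 1 (0.91, 0.91 and 0.90) and with KLF5 and SELENOT for NOS2 clone 2 (0.92 and 0.88). The points share arrays and loops, so such an r is high for many genes and no test was made.

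Of 24 listed genes of the complex and its regulators, 16 were on the array and 15 were measured on all 12 arrays, and none of 10 listed genes of other NADPH oxidases was on it. RAC2, the small GTPase that switches the oxidase on in leukocytes, was the only one of the 15 to pass at 4 h, against 10.4% of all features. It fell by 0.56 on the log2 scale (adjusted p = 0.014), with -0.57 in E. tenella, -0.73 in E. maxima and -0.37 in E. acervulina, and its stimulated mean was -0.44 (adjusted p = 0.021, with 10.5% of features passing). At 18 h, the time of the high NCF4 values, 11 of 15 were positive with a median of 0.27, beside -0.00 over all features, and none passed (1.62% of features did). PRKCD, a kinase that phosphorylates oxidase subunits, was at 0.60 (adjusted p = 0.15). PREX1, an exchange factor for Rac proteins, was at 0.47 (adjusted p = 0.14). NCF1C, matched to the organiser subunit NCF1, was at 0.55 (adjusted p = 0.24). It stood at -0.11 with E. tenella, where NCF4 was highest at that time, 0.74 with E. maxima and 1.02 with E. acervulina. Of the 4 negative genes at 18 h, RAC2 was the farthest from 0, at -0.39 (adjusted p = 0.071). Its values were -0.39 in E. tenella, -0.49 in E. maxima and -0.29 in E. acervulina. At 48 h 7 were positive and 8 negative, and the tyrosine kinase gene SYK at -0.59 (adjusted p = 0.082) was the farthest from 0.

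Listed genes of nitric oxide synthesis and its control mostly lay below 0 at 4, 18 and 48 h. The calls against unstimulated cells at these times came from ADH4, HSP90AB1 and CALM2, and none from ASS1, ASL1, SLC7A3 or GCH1. Of 29 listed, 10 were on the array and 9 were measured throughout. At 18 h 9 of 9 were negative with a median of -0.21, at 48 h 8 of 9 with a median of -0.27, and the medians over all features were -0.00 and -0.03. At 4 h 1 of 9 fell, at 18 h 1 fell and at 48 h 2 fell, and none rose against unstimulated cells at those times, beside 10.4%, 1.62% and 3.59% of all features passing. ADH4 stood, through a synonym, for the listed ADH5, which in mammals breaks down S-nitrosoglutathione. Such a match may not be the listed gene itself. ADH4 fell by 0.93 at 4 h (adjusted p = 0.0096) and by 0.67 at 18 h (adjusted p = 0.047), and was at -0.27 at 48 h (adjusted p = 0.22). HSP90AB1, a chaperone, fell by 0.83 at 48 h (adjusted p = 0.026) with -0.80, -0.84 and -0.85 in the species. HSP90AA1, also listed, was the 1 positive gene at 48 h, at 0.52 (adjusted p = 0.54) with 1.28, -0.23 and 0.50. CALM2, which encodes calmodulin, a tightly bound partner of the synthase, fell by 0.48 at 48 h (adjusted p = 0.039) with -0.48, -0.52 and -0.43. ASS1, which takes part in rebuilding arginine from citrulline, was at -0.59 at 48 h (adjusted p = 0.076). ASL1, which stood for the listed ASL, was at -0.52 (adjusted p = 0.076). That match too may not be the listed gene, and whether ASL1 acts in this step was not tested. GCH1, which starts the synthesis of the cofactor tetrahydrobiopterin, was at -0.12 (adjusted p = 0.55), and its 3 species values at 48 h were 0.10, -0.19 and -0.27.

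Of 18 listed genes that remove superoxide or peroxide, 7 were measured throughout. The peroxiredoxin gene PRDX3 fell by 0.44 at 4 h (adjusted p = 0.029) and PRDX1 fell by 0.84 at 48 h (adjusted p = 0.049), and no other gene of the list passed at 4, 18 or 48 h. That is 1 of 7 at 4 h and 1 of 7 at 48 h, beside 10.4% and 3.59% of all features, a share close to the background at 4 h. At 18 h 0 of 7 passed, beside 1.62% of all features. SOD2, the mitochondrial superoxide dismutase, was at -0.34 at 4 h (adjusted p = 0.081). CAT, which encodes catalase, lay between -0.07 and 0.04. TXNRD1, thioredoxin reductase, was at 0.05, 1.31 and 0.85 at 4 h and at 1.41, -0.31 and -0.37 at 48 h in E. tenella, E. maxima and E. acervulina, so its 48 h values, like those of NOS2 clone 2, were far higher with E. tenella than with the other two.

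Of 29 listed receptors and transcription factors known to act on CYBB or NOS2, 17 were measured throughout. At 4 h 3 of 17 passed, at 18 h 1 and at 48 h 2, beside 10.4%, 1.62% and 3.59% of all features. LY96, a coreceptor for lipopolysaccharide, fell by 0.96 at 4 h (adjusted p = 0.014). TLR2A, a Toll-like receptor, fell by 0.81 at 4 h (adjusted p = 0.042) and had values of -1.22 in E. tenella, -1.21 in E. maxima and 0.02 in E. acervulina, and so, like CYBB clone 1 at that time, was highest with E. acervulina. At 48 h it fell by 1.35 (adjusted p = 0.025). CEBPB rose by 0.54 at 4 h (adjusted p = 0.041), and HIF1A, the oxygen-sensing factor, rose by 1.07 at 18 h (adjusted p = 0.036) and by 1.23 at 48 h (adjusted p = 0.023). Those of HIF1A at 48 h were 1.27, 1.61 and 0.82. IRF8, which drives CYBB transcription in mammalian phagocytes, was at -0.86 at 48 h with -1.02, -0.65 and -0.89 (adjusted p = 0.070), and SPI1, which does so too, was at -0.10 (adjusted p = 0.66). IRF1 was at 0.36 at 48 h (adjusted p = 0.25), NFKBIA at -0.21 (adjusted p = 0.69) and IL1B at -0.24 (adjusted p = 0.40).

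**Figure D5:**
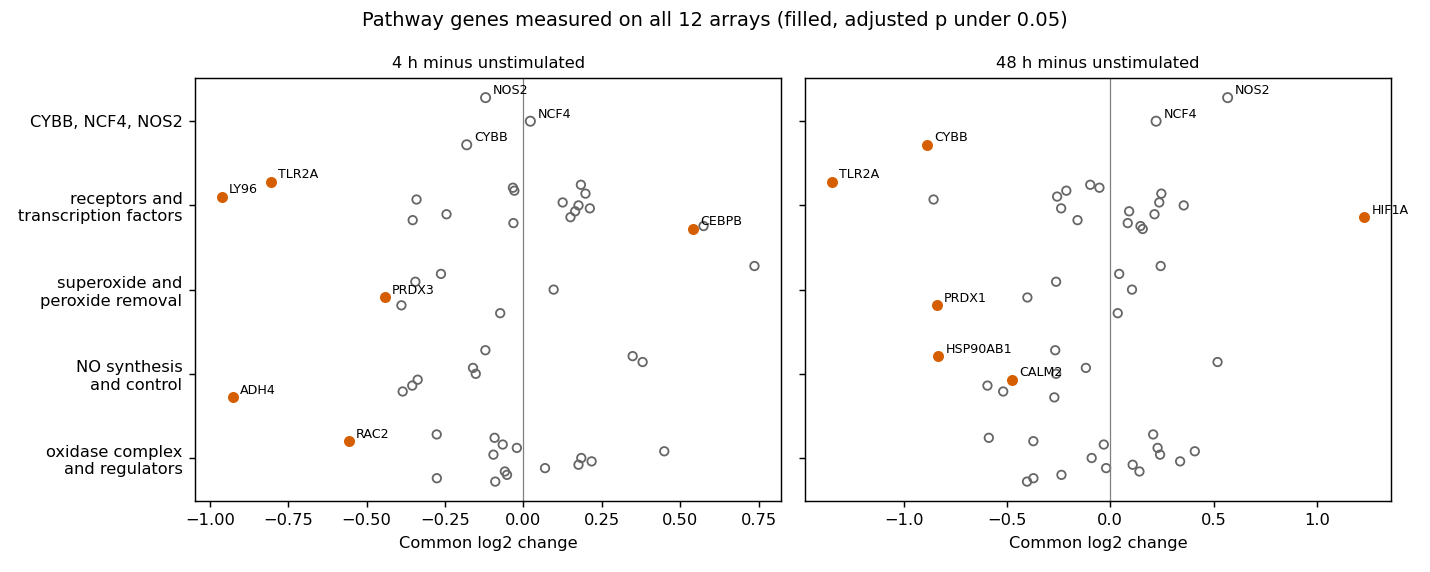
Common log2 change (x axis) of each listed gene measured on all 12 arrays at 4 h (left) and 48 h (right), by list (y axis), with filled points for an adjusted p under 0.05. At 48 h TLR2A, CYBB, PRDX1, HSP90AB1 and CALM2 are filled on the lower side and HIF1A on the higher side.

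Of 22 macrophage markers, 15 were measured throughout. At 4 h CTSD, the gene of cathepsin D, rose by 1.27 (adjusted p = 0.027) and LYZ, the lysozyme gene, fell by 0.93 (adjusted p = 0.010), where 10.4% of features passed. At 48 h, where 3.59% passed, 1 of them fell, LAPTM5 at -0.84 (adjusted p = 0.031), 6 were positive and 9 negative, and the median was -0.19, beside -0.03 over all features. CSF1R, the receptor for colony stimulating factor, was at -0.51 (adjusted p = 0.21). None of the markers of T cells (3 measured of 13 listed), B cells (2 of 7), heterophils (4 of 8) or fibroblasts (1 of 9) passed at 4, 18 or 48 h, and no thrombocyte marker was on the array. Of 2 erythroid list genes 1 fell at 4 h, ALAS1 at -0.63 (adjusted p = 0.020), which stood for the listed ALAS2 through a synonym. In the same way SH2D6 stood for the B cell marker BLNK and S100A12 for the heterophil marker S100A9. Such a match may not be the listed marker itself. The T cell marker CD3D had changes from -1.29 to 1.24 and passed in no time contrast. The T cell markers did not move together with E. acervulina at 4 and 18 h. There CD3D was at 1.24 and 0.94, CD28 at 0.24 and 0.51, and GATA3 at -0.23 and -0.21. The part of these markers in the values of CYBB, NCF4 and NOS2 was not tested.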

How the data were processed

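The 12 two-colour spotted cDNA arrays of the HTC line were used. The authors deposited 1 log ratio per spot and array, read here as log2, and its base, background correction, normalization and numerator are not stated per the labels. Depth is not defined for arrays, and their number limits precision. One ratio direction was assumed for the 4 arrays of each loop, which was not tested. Spots of a symbol (or of a clone, in an added fit) were averaged, and levels per species and time were found by least squares in each loop. Only features complete over the 12 arrays entered, 3700 by symbol and 4450 by clone. Levels were fitted with limma (version 3.58.1, R 4.3.3) on time with species as a block (6 residual degrees of freedom), on species with an F test (4), and the arrays on 9 RNA changes and a dye term (2). P-values were two-sided and Benjamini-Hochberg adjusted, with a threshold of 0.05 (for the array fit also at least 2-fold, and shown without it as well). The fit was tested on simulated data. Genes named are CYBB, NCF4 and NOS2, the 5 most like each, and of each list those that passed a time contrast and up to 3 more with the largest stimulated mean change, not all of which are printed. PRKCD, SYK, GCH1, CAT, SPI1, IRF1, NFKBIA, IL1B, CSF1R and the genes most like single clones were added after their values were seen. HSP90AA1 and SLC7A3 are named outside this rule too. Members and lists were chosen with earlier results of these data known.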

Additional observations from a re-analysis of the deposited data

Results flagged for a closer look

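The difference between species in a change against unstimulated RNA passed the test against array error for 5 values. The tests covered 5 clones, 3 pairs of species and 3 times, with 1 RNA sample on each side. Of all clones, 0.36% passed for E. tenella minus E. acervulina at 4 h and 1.28% for that pair at 48 h. For E. tenella minus E. maxima at 48 h 3.42% passed. For NOS2 clone 2, E. tenella minus E. acervulina was 3.65 at 4 h and 3.02 at 48 h, and E. tenella minus E. maxima was 2.04 at 48 h. At 4 h E. maxima minus E. acervulina was of like size for this clone, at 3.53, and did not pass. For CYBB clone 1, E. tenella minus E. acervulina was -1.46 at 48 h. For NCF4, E. tenella minus E. maxima was -1.64 at 48 h. NOS2 clone 1 and CYBB clone 2 had no such difference that passed. No difference at 18 h passed for any of the 5 clones, which does not show that none was present. For CYBB clone 1, E. tenella minus E. acervulina was -1.32 at 4 h and -1.49 at 18 h, near its size at 48 h. The F test over species, which uses the spread between times, passed for none of the 5 clones.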

How the results depend on the processing

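The 3 species replace replicates, and the lone RNA per species and time limits every test. Clones with equal weight (chosen after seeing the data, as were fits by clone) and robust moderation of variances changed no call, direction or count by over 1.5 times, nor did any alternative give a call for NCF4 or NOS2. No paired analysis was possible because each array is the only sample of its group, beyond the species block that the fit on time holds. The call of CYBB at 48 h was lost with arrays centred (-0.84, adjusted p = 0.053), with 3 of 4 arrays per loop admitted (-0.89, 0.067, more features tested), with the direct array alone (-0.89, 0.28), for spot 1116 (-1.41, 0.058) and for clone 2 (-0.29, 0.31). It was also lost without each species (-1.23 to -0.64, adjusted p from 0.064 to 0.33). Without E. tenella the value was -0.79 and without E. maxima -0.64, and the cause was not tested. From 4 to 48 h CYBB passed with arrays centred and scaled (-0.66, 0.049). Some changes turned sign. NCF4 at 4 h was -0.045 with arrays centred and scaled, -0.011 on the direct array and -0.010 for spot 5020. CYBB from 4 to 18 h was 0.16 for spot 1116, 0.19 for spot 11356 and 0.23 for clone 1, and from 18 to 48 h it was 0.0018 for clone 2 against -0.68. NOS2 clone 1 gave -0.086 at 18 h, -0.11 at 48 h against 0.57 for the gene average, -0.12 in the stimulated mean and -0.021 from 18 to 48 h against 0.56.

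Leaving out 1 species gave ranges that crossed 0. They were -0.46 to 0.0068 for CYBB at 18 h and -0.08 to 0.028 from 4 to 18 h. For NCF4 they were -0.12 to 0.15 at 4 h, -0.19 to 0.63 at 48 h and -0.070 to 0.60 from 4 to 48 h. For NOS2 they were -0.49 to 0.54 at 4 h, -0.14 to 0.17 at 18 h, -0.18 to 0.54 in the stimulated mean and -0.37 to 0.42 from 4 to 18 h. NOS2 at 4 h was 0.54 without E. acervulina and NCF4 at 48 h was -0.19 without E. maxima. Counts of features without 1 species ran from 0 to 76 at 4 h (385 with all 3), 0 to 1 at 18 h (60), 0 to 2 at 48 h (133), 0 to 4 in the stimulated mean (387), 0 to 11 from 4 to 48 h (264) and were 0 in each case from 4 to 18 h (1). At 18 h the count was 38 with arrays centred and scaled, 5 with 3 of 4 arrays admitted, 107 with the median over spots and 38 by single spots. The stimulated mean count was 187 with arrays centred and scaled. From 4 to 18 h it was 3 with arrays centred, 26 with scaling as well, 0 with 3 of 4 arrays admitted, 4 by single spots and 4 by clones. From 4 to 48 h it was 170 with 3 of 4 arrays admitted. With arrays centred, 231 features were higher and 176 lower at 4 h, against 167 and 218. At 48 h it was 76 and 47, against 64 and 69, and in the stimulated mean 203 and 172, against 154 and 233.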
